A study of Mus musculus with 10 samples.

Results

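The replication-dependent histone genes were taken as all rows of the expression table whose symbol starts with Hist1h, Hist2h, Hist3h or Hist4h. The rule found 65 of 17016 genes and used no measured value. Hist1h2br was identical to Hist1h2bq in every library, so the pair was counted once, which left 64 genes. They comprised 6 genes of histone class H1, 17 of H2A, 17 of H2B, 12 of H3 and 12 of H4. By the digit in the symbol, 50 belonged to the Hist1 cluster, 10 to Hist2, 3 to Hist3 and 1 to Hist4.

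Replication-dependent histone genes supply the histones that package newly copied DNA. H3 and H4 form the tetramer at the centre of the nucleosome, H2A and H2B add dimers to it, and H1 binds the linker DNA. Their messages are made mainly in S phase and, unlike other messages, most end in a stem-loop in place of a poly(A) tail. The stem-loop is bound by SLBP, and the message is cut after it by a complex that contains the U7 small nuclear RNA. In skin, dividing cells lie mainly in the basal epidermis and in the matrix of growing hair follicles, and imiquimod, an agonist of Toll-like receptor 7, thickens the epidermis.

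The study asked what an agonist of the dopamine receptor DRD2, quinpirole, does in the imiquimod model of psoriasis. Whole skin came from female BALB/c mice aged 10 to 11 weeks. All of them had received 5% imiquimod cream on shaved back skin on 5 successive days, so the series as used here holds no skin without imiquimod. In addition, 5 libraries came from mice given vehicle and 5 from mice given quinpirole into the peritoneum 5 times over the same days. The dose of quinpirole was not given in the sources used here. Whether each of the 5 numbered samples of a group is its own mouse is not stated, and the p-values below speak only to the spread among these samples.

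Libraries were made from total RNA after depletion of ribosomal RNA, with a directional kit, and the labels name no selection for poly(A). Values are given as CPM, the authors' reads of a gene scaled to the size of the library. The recovered reads ranged from 6763367 to 8361877 per library, so 1 read was worth 0.119 to 0.146 CPM. All 8 basal keratinocyte markers were found, with Krt14 at 5586 to 12989.8 CPM. Hair RNA and skeletal muscle RNA, however, varied widely. Summed over 28 genes of the hair shaft, it ranged from 17.9 to 7765 CPM with vehicle and from 34.2 to 7573 CPM with quinpirole. The summed level of 12 skeletal muscle genes ranged from 501 to 1870 CPM with vehicle and from 1049 to 5176 CPM with quinpirole. In bulk skin, fewer cells of a type and less RNA per cell cannot be told apart.

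Quinpirole replicate 4 stood apart before any comparison of the groups. It held the highest or lowest value of the 10 libraries for 40.0% of the 14548 genes tested, against 11.0% to 23.4% in the other libraries. Ass1 and Rsc1a1 were at 0 in it and at 9.16 to 20.2 CPM and 11.2 to 20.6 CPM in the others. Its Rpl39 was 145 CPM, against 467 to 740.2 CPM. Tnnt3, a fast-muscle troponin, was 597 CPM there and 35.2 to 180.3 CPM elsewhere. The median of each class and the fitted values of most named histone genes are therefore given with and without this library.

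The 3′ ends are shown first, because the stem-loop is what sets these messages apart in an RNA library. In the GENCODE annotation of mm10, 51 of 65 genes had at least 16 bases annotated after the stop codon. A 16-base stem-loop with at most 1 mismatch to the consensus lay there in 45 of them. It began 22 to 59 bases after the stop codon, with a median of 32. A match with no mismatch occurred anywhere in a transcript for 35 of the 65 genes and for 3 of 21813 other protein-coding genes, or 0.0138%. The other genes were all those outside the 65, so histone variants and histone genes without values here can be among them. Which genes the 3 were was not recorded. Below, 1 gene is shown for each of 7 versions, 5′ to 3′, with the stem-loop in capitals.
Hist1h1c: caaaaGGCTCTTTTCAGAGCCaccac
Hist1h3c: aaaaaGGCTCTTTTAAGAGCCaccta
Hist1h4c: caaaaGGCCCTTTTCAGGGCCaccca
Hist2h4: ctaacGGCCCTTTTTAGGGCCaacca
Hist1h4b: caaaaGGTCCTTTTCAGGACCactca
Hist1h4a: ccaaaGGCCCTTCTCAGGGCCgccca
Hist1h3g: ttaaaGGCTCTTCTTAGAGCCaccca

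The commonest version, that of Hist1h1c, was found in 26 genes. The versions of Hist1h3c and Hist1h4c were found in 6 genes each, and those of Hist2h4 and Hist1h4b in 2 each. Hist1h4a and Hist1h3g carried versions of their own, and so did Hist2h2ac, which gives 8 versions in all. In all 8, the first 6 and the last 6 of the 16 bases were complementary to each other.

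The genes of a class are near copies of each other, which bears on every value below. Within H2A, H2B, H3 and H4, pairs of coding sequences of equal length had median identities of 96.7%, 97.4%, 97.2% and 93.9%. The coding sequences of Hist1h2ao and Hist1h2ap were identical, as were those of Hist2h2aa1 and Hist2h2aa2, Hist1h2bq and Hist1h2br, and Hist2h3c1 and Hist2h3c2. In all, 56 of 65 transcripts shared at least one run of 100 bases with another. How reads that fit several genes were divided is not given in the sources used here, so the level of a single gene is uncertain, whereas a class sum keeps reads shared within the class. Hist1h1e, of class H1, and Hist1h2be, of class H2B, overlap by 496 bases on the same strand, so reads there can count for either class.

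H4 shows how the copies differ. The stretch from base 4 to base 63 of the coding sequence is given for 6 H4 genes, with bases that differ among the 6 in capitals.
Hist1h4d: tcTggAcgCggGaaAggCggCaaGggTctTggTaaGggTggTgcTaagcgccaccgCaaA
Hist1h4m: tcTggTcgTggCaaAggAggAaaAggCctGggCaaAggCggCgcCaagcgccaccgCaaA
Hist1h4a: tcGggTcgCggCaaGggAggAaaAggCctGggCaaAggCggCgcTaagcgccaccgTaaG
Hist1h4c: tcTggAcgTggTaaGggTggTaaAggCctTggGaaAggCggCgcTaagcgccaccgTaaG
Hist1h4f: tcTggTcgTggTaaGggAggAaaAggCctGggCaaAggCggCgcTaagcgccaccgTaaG
Hist1h4h: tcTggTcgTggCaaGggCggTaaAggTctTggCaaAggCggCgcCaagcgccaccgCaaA

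All 17 differing positions of this stretch were the last base of a codon, and so were all 32 differing positions of the 309 coding bases. The genes thus differ in their RNA at positions where many changes leave the amino acid as it is.

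No histone gene passed the test between quinpirole and vehicle. Of 64 genes, 60 reached 1 CPM in at least 5 libraries and were tested in a limma fit over 14548 genes. Adjusted p-values fell under 0.05 for 0 of the 60, against 0.0206% of all genes tested. Unadjusted p-values fell under 0.05 for 0 of the 60 too, against 11.4% of all genes. On the recovered reads, edgeR and DESeq2 also called 0 of the 60. The 2 groups overlapped in all 60 genes, whereas 2.2% of all genes had groups that did not overlap. The fitted value was lower with quinpirole in 43 and higher in 17, with a median log2 fold change of −0.10, against −0.0021 over all genes tested. Without quinpirole replicate 4 the median was −0.037, with 42 lower and 18 higher, and no gene of 14475 tested was called.

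Summed over the 64 genes, histone RNA was 6149.8, 9029, 7501, 8355 and 5709 CPM in vehicle replicates 1 to 5 and 7290.1, 5814, 8277, 6782 and 7035 CPM in quinpirole replicates 1 to 5. The group means were 7349 ± 1413 CPM and 7040 ± 889 CPM (mean ± SD, n = 5 each, as for all group means below), a log2 ratio of −0.062. The difference between the means was smaller than the SD of either group, and both the lowest and the highest library were vehicle libraries. These sums made up 0.544% to 0.938% of the reads of a library. Without quinpirole replicate 4 the log2 ratio was −0.049, and without vehicle replicate 2, the highest library, it was 0.023.

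**Figure D1:**
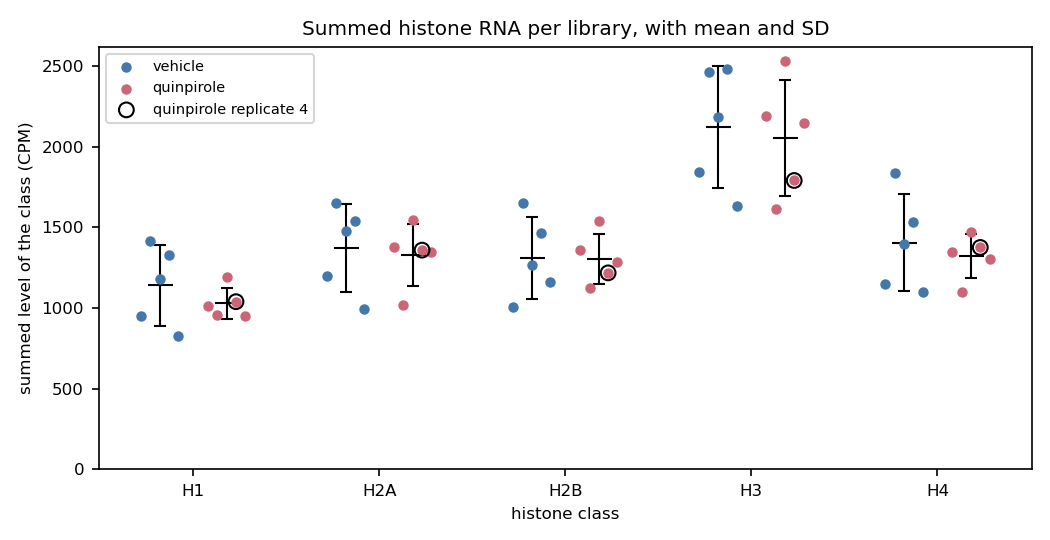
Summed level in CPM (vertical axis) of each histone class (horizontal axis) in the 5 vehicle and 5 quinpirole libraries; points are libraries, bars the mean and SD, and the ring marks quinpirole replicate 4. In each class the 2 groups overlap, and the SD is larger with vehicle than with quinpirole.

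H1 linker histones were 952, 1417, 1177, 1328 and 825 CPM in vehicle replicates 1 to 5 and 1014, 956, 1189.7, 1039 and 953 CPM in quinpirole replicates 1 to 5. Their means were 1140 ± 249 CPM and 1030 ± 96.5 CPM, a log2 ratio of −0.15. All 5 tested H1 genes had lower fitted values with quinpirole, with a median of −0.16 that was −0.13 without quinpirole replicate 4, and none passed the test. Hist1h1c (mm10 chr13:23738808-23740367, plus strand) was the most abundant per coding length, with 37.4% of the H1 sum per kilobase. It was 372, 475, 431, 483 and 303 CPM in vehicle replicates 1 to 5 and 365, 392, 480.4, 292 and 387 CPM in quinpirole replicates 1 to 5. The 2 groups overlapped, with log2 fold change −0.10 ± 0.155 (SE; 95% interval −0.44 to 0.24; adjusted p = 0.842) in the limma fit, and the log2 fold change was −0.010 without quinpirole replicate 4. Hist1h1e was 239 ± 51.3 CPM with vehicle and 219 ± 20.6 CPM with quinpirole, and Hist1h1d was 215 ± 52.4 CPM with vehicle and 189 ± 30.2 CPM with quinpirole; neither passed, with fitted log2 fold changes of −0.11 and −0.16. Hist1h1b, which codes for H1.5, ranged from 73.0 to 207 CPM, with a fitted value of −0.16, or −0.35 without quinpirole replicate 4. Hist1h1t, the testis-type H1, had 10 reads in all with vehicle and 7 with quinpirole and was not tested.

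H2A genes summed to 1197, 1653, 1476, 1541 and 991 CPM in vehicle replicates 1 to 5 and 1377, 1018, 1544, 1359 and 1347 CPM in quinpirole replicates 1 to 5. Their means were 1371 ± 271 CPM and 1329 ± 191 CPM, a log2 ratio of −0.045. Of 15 tested genes, 12 had lower and 3 higher fitted values, with a median of −0.19 that was −0.061 without quinpirole replicate 4. Hist1h2ao (chr13:21810465-21810944, plus strand) led the class per coding length, with 16.5% of its sum per kilobase. It was 214, 272, 247, 270.4 and 175 CPM in vehicle replicates 1 to 5 and 232, 165, 283, 121 and 248 CPM in quinpirole replicates 1 to 5. Quinpirole replicate 4 was the lowest library and quinpirole replicate 3 the highest, and the fit gave log2 fold change −0.21 ± 0.216 (SE; 95% interval −0.68 to 0.26; adjusted p = 0.753). Without quinpirole replicate 4 that log2 fold change was −0.032. Hist1h2ad was 166 ± 27.9 CPM with vehicle and 148 ± 38.4 CPM with quinpirole, with a fitted log2 fold change of −0.20, or −0.089 without the same library.

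Hist1h2ap, the gene with the same coding sequence as Hist1h2ao, was at 0 in 7 libraries. It was at 6.53 CPM in vehicle replicate 1, at 2.06 CPM in quinpirole replicate 5 and at 146 CPM in quinpirole replicate 4. Hist1h2ao was 121 CPM in that library and 165 to 283 CPM in the others. The sum of the pair was 267 CPM there, inside the 165 to 283 CPM of the other 9 libraries. Because Hist1h2ap reached 1 CPM in 3 libraries, it stayed outside the fit. An exact two-sided permutation test over the 10 libraries gave p = 0.722, or 1 when adjusted over the 2 genes tested in this way. With reads in only 3 libraries, no division between the groups could have brought this p under 0.05, so the test decides nothing.

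Hist2h2aa1 was 71.6, 159, 112, 108 and 100.2 CPM in vehicle replicates 1 to 5 and 103, 133, 97.8, 328 and 81.4 CPM in quinpirole replicates 1 to 5. Quinpirole replicate 4 was at 328 CPM and the other 9 libraries were at 71.6 to 159 CPM. Its log2 fold change was 0.27 ± 0.332 (SE; adjusted p = 0.804 in limma), and −0.061 without that library. Its identical copy, Hist2h2aa2, had 9 reads in each group. Hist2h2ab, a low gene of the same cluster, was 2.64, 4.70, 3.93, 4.35 and 2.10 CPM in vehicle replicates 1 to 5 and 3.33, 3.35, 4.77, 5.72 and 4.39 CPM in quinpirole replicates 1 to 5. It was among the 5 genes with the smallest p in the higher direction, with log2 fold change 0.24 ± 0.203 (SE; 95% interval −0.20 to 0.69; adjusted p = 0.697). Its value in quinpirole replicate 4 was again the highest of the 10, and the log2 fold change was 0.15 without it.

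H2B genes summed to 1004, 1654, 1269, 1466 and 1159 CPM in vehicle replicates 1 to 5 and 1359.9, 1124, 1539, 1218 and 1283 CPM in quinpirole replicates 1 to 5. The means of 1310 ± 255 CPM and 1305 ± 157 CPM gave a log2 ratio of −0.0064, so this class was the most alike between the groups in its sum. Of 17 tested genes, 8 had higher and 9 lower fitted values, with a median of −0.013, or 0.0038 without quinpirole replicate 4. Hist2h2bb (chr3:96269752-96270132, plus strand) was the leading gene, with 28.4% of the class sum per coding kilobase. It was 327, 424, 359, 418 and 319 CPM in vehicle replicates 1 to 5 and 369, 309, 478, 312 and 396 CPM in quinpirole replicates 1 to 5. Its groups overlapped throughout, with log2 fold change 0.0029 ± 0.137 (SE; 95% interval −0.30 to 0.30; adjusted p = 0.997). Hist1h2bg was 164 ± 27.1 CPM with vehicle and 160.1 ± 38.1 CPM with quinpirole and Hist1h2bb 108 ± 17.2 CPM with vehicle and 108 ± 31.6 CPM with quinpirole. Their fitted values of −0.058 and −0.043 became 0.098 and 0.15 without quinpirole replicate 4, and that of Hist2h2bb became 0.062. The interval of the Hist2h2bb fold change runs from a decrease to an increase of about equal size, and the intervals of the other H2B genes were wider.

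Within H2B, Hist1h2bc, Hist1h2bj, Hist1h2bk and Hist1h2bq moved together in quinpirole replicate 4. Hist1h2bc was 38.3, 95.3, 53.4, 68.5 and 71.4 CPM in vehicle replicates 1 to 5 and 68.0, 71.4, 66.2, 128 and 53.8 CPM in quinpirole replicates 1 to 5. The first vehicle library was lowest and quinpirole replicate 4 highest. Hist1h2bj was 83.2 CPM in that library and 23.0 to 54.5 CPM in the others, Hist1h2bk 137 against 44.6 to 113 CPM, and Hist1h2bq 55.3 against 12.7 to 33.6 CPM. The coding sequences of Hist1h2bc and Hist1h2bj each differ from that of Hist1h2bq at 2 bases, so these values are not independent measurements. Without the library, the fitted log2 fold changes were 0.043 for Hist1h2bc, −0.15 for Hist1h2bj, −0.15 for Hist1h2bk and −0.15 for Hist1h2bq, against 0.24, 0.099, 0.052 and 0.13 with it.

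Hist1h1c, Hist1h2bc and Hist2h2be are known to give polyadenylated messages in differentiated cells. Hist2h2be, a low H2B gene, was 2.39, 4.98, 3.67, 2.77 and 3.35 CPM in vehicle replicates 1 to 5 and 4.40, 5.67, 3.0, 3.43 and 4.0 CPM in quinpirole replicates 1 to 5. Its groups overlapped, with log2 fold change 0.21 ± 0.190 (SE; 95% interval −0.21 to 0.62; adjusted p = 0.727). Hist3h2bb-ps, a pseudogene by its symbol, had 124 reads in all and a fitted value of 0.0021, or 0.10 without quinpirole replicate 4. Hist3h2ba had the most negative fitted value of all 60 genes, −0.49, on 427 reads in all, and its interval ran from −1.47 to 0.50; without that library the value was −0.29.

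H3 genes formed the largest class per coding length, at 5121 CPM per kilobase over the 10 libraries, against 4408 for H4, 3467 for H2A, 3455 for H2B and 1671 for H1. They summed to 1846, 2466, 2185, 2483 and 1634 CPM in vehicle replicates 1 to 5 and 2193, 1614, 2534, 1791 and 2147 CPM in quinpirole replicates 1 to 5. Their means were 2123 ± 377 CPM and 2056 ± 361 CPM, a log2 ratio of −0.046. Of 11 tested genes, 3 had higher and 8 lower fitted values, with a median of −0.045, or −0.00016 without quinpirole replicate 4. Hist2h3c2 (chr3:96238108-96239127, minus strand), the leading H3 gene, was 287, 418, 343, 392 and 289 CPM in vehicle replicates 1 to 5 and 356, 277, 424, 369 and 365 CPM in quinpirole replicates 1 to 5. The groups overlapped, with log2 fold change 0.054 ± 0.139 (SE; 95% interval −0.25 to 0.36; adjusted p = 0.919). Hist1h3i was 258 ± 39.6 CPM with vehicle and 237 ± 68.9 CPM with quinpirole, and Hist1h3f 233 ± 45.0 CPM with vehicle and 233 ± 40.4 CPM with quinpirole. Their fitted values were −0.16 and 0.0044, and −0.0078 and 0.026 without quinpirole replicate 4. Hist2h3b, from the same cluster as Hist2h3c2, was 143, 206, 165, 193 and 133 CPM in vehicle replicates 1 to 5 and 174, 148, 206, 191 and 181 CPM in quinpirole replicates 1 to 5, with log2 fold change 0.11 ± 0.132 (SE; 95% interval −0.18 to 0.40; adjusted p = 0.804). Hist2h3c1, the copy of Hist2h3c2, had reads in 3 libraries, 28 in all with vehicle and 57 with quinpirole. The exact permutation test, two-sided, gave p = 1, and with reads in so few libraries it could not have fallen under 0.05.

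H4 genes summed to 1151, 1838, 1395, 1536 and 1101 CPM in vehicle replicates 1 to 5 and 1346, 1102, 1471, 1375 and 1305 CPM in quinpirole replicates 1 to 5. Their means were 1404 ± 301 CPM and 1320 ± 136 CPM, a log2 ratio of −0.089. Of 12 tested genes, 9 had lower and 3 higher fitted values, with a median of −0.17; without quinpirole replicate 4, all 12 were lower, with a median of −0.087, and none was called. Hist1h4m (chr13:21811746-21812147, plus strand) led the class, at 206, 299.9, 262, 288 and 199.8 CPM in vehicle replicates 1 to 5 and 216, 188, 240.1, 309 and 227 CPM in quinpirole replicates 1 to 5. Here quinpirole replicate 4 was the highest library, and the fit gave log2 fold change −0.088 ± 0.152 (SE; 95% interval −0.42 to 0.24; adjusted p = 0.866). Without it the log2 fold change was −0.19.

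The smallest adjusted p of any histone gene, 0.460, belonged to Hist1h4i (chr13:22040636-22041362, minus strand). It was 51.9, 70.3, 72.0, 62.4 and 50.8 CPM in vehicle replicates 1 to 5 and 51.1, 48.3, 60.5, 47.6 and 49.3 CPM in quinpirole replicates 1 to 5. Its means were 61.5 ± 9.93 CPM and 51.4 ± 5.25 CPM, with a log2 fold change of −0.25 ± 0.117 (SE) and an unadjusted p of 0.0582 in limma. Vehicle replicates 1 and 5 lay among the quinpirole libraries. Hist1h4j, Hist1h4k, Hist1h4f and Hist1h4c completed the 5 genes with the smallest p in the lower direction, with fitted values of −0.35, −0.27, −0.27 and −0.27. In all 4, quinpirole replicate 4 was the lowest of the 10 libraries, and without it the values were −0.20, −0.18, −0.096 and −0.078.

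Hist1h4d went the other way in that library. It was 148, 237, 184, 198 and 159.8 CPM in vehicle replicates 1 to 5 and 175, 163, 204, 323 and 179.8 CPM in quinpirole replicates 1 to 5. Quinpirole replicate 4, at 323 CPM, lay above the 148 to 237 CPM of the other 9, and the fitted value of 0.15 became −0.023 without it. Hist1h4a, whose level in that library was 215 CPM, inside the range of the others, had a fitted value of 0.0025, or −0.021 without it.

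**Figure D2:**
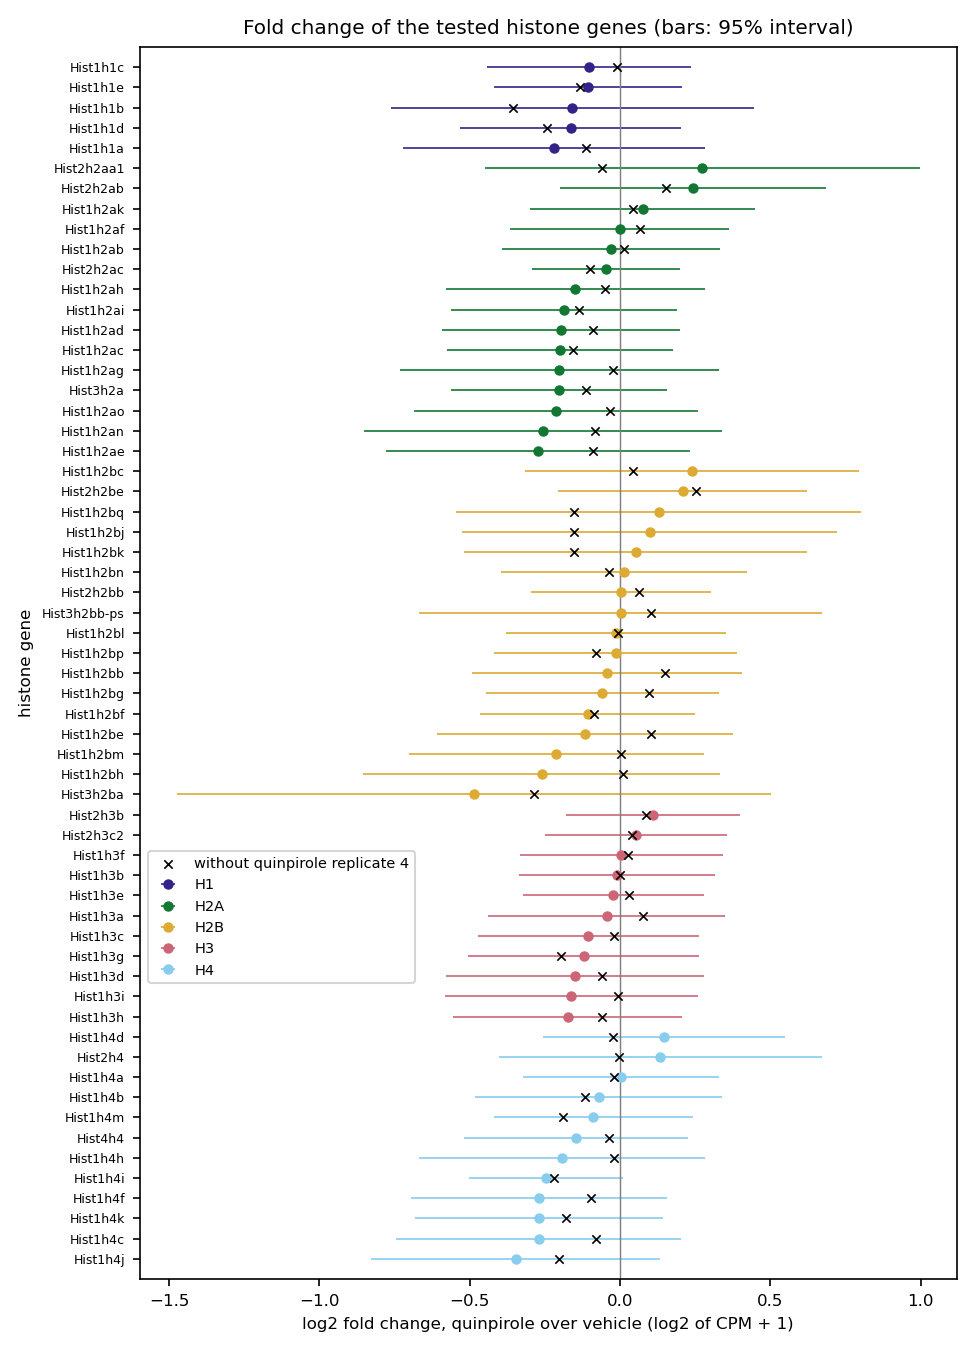
Log2 fold change of the 60 tested histone genes, quinpirole over vehicle, on the log2(CPM + 1) scale (horizontal axis), ordered within each class; coloured points are the fitted values, bars their 95% intervals, and crosses the values without quinpirole replicate 4. Every interval includes 0, and 17 of the 60 crosses lie on the other side of 0 from their points, 8 of them below 0, as for Hist2h2aa1 and Hist1h4d, and 9 above 0, as for Hist1h2bb and Hist1h2bg.

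By cluster, the 48 tested genes of Hist1, on chromosome 13 from 21715763 to 23764406 (mm10), had 39 lower and 9 higher fitted values, with a median of −0.11, or −0.054 without quinpirole replicate 4. The 8 tested genes of Hist2, on chromosome 3 from 96219865 to 96270132, had 7 higher and 1 lower, with a median of 0.12. Without quinpirole replicate 4 the Hist2 genes had 5 higher and 3 lower values and a median of 0.051. Their sums were 6025 ± 1182 CPM with vehicle and 5669 ± 760.0 CPM with quinpirole for Hist1, and 1105 ± 196 and 1175 ± 157 CPM for Hist2. No gene of either cluster was called, and the difference between the clusters was not tested. Hist3, on chromosome 11, and Hist4, on chromosome 6, held 3 and 1 tested genes.

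The division of a class among its genes was nearly constant in 9 libraries and different in quinpirole replicate 4. It was measured as the share of a class sum that would have to move between genes to give the mean division of the other 9 libraries. In quinpirole replicate 4 this share was 13.9% for H1, 28.3% for H2A, 20.8% for H2B, 10.3% for H3 and 18.5% for H4. In no other library did it exceed 7.93%. Yet the class sums of this library lay inside the range of the other libraries in all 5 classes.

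**Figure D3:**
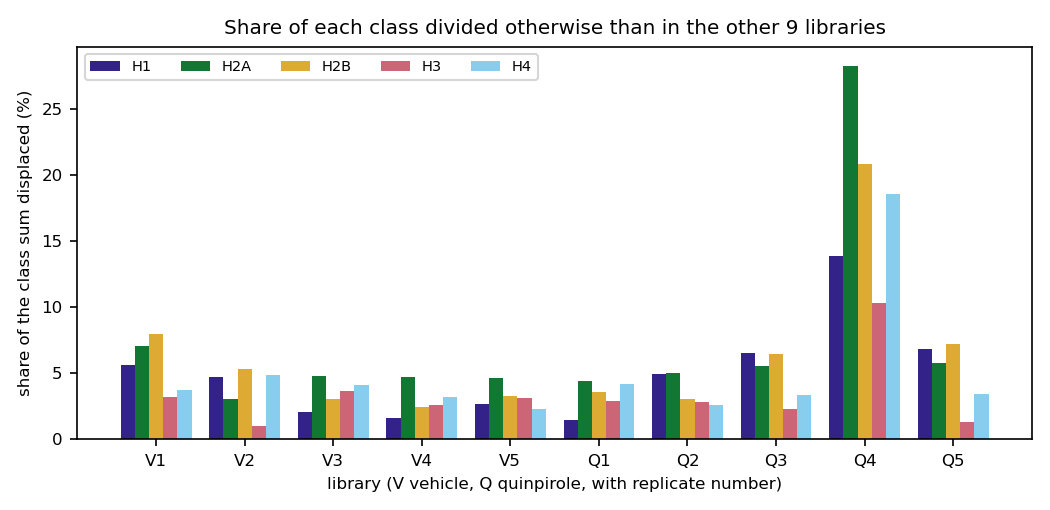
Share of each class sum, in percent (vertical axis), that would have to move between genes to match the mean division of the other 9 libraries, for each library (horizontal axis) and class (colour). Quinpirole replicate 4 reaches 10.3% to 28.3%, and the other bars stay at or below 7.93%.

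Of the 60 tested genes, 8 had their highest and 23 their lowest value of the 10 libraries in quinpirole replicate 4. The 8 were Hist1h2bc, Hist1h2bj, Hist1h2bk, Hist1h2bq, Hist1h4d, Hist1h4m, Hist2h2aa1 and Hist2h2ab. Together the 31 genes made up 51.7% of the tested histone genes, against 40.0% of all genes tested. Of all 14548 genes tested, 3169 were highest and 2655 lowest in this library. Histone genes were thus lowest there more often than genes in general, and highest less often. Vehicle replicate 2 held the highest or lowest value for 45.0% of the tested histone genes, against 22.8% of all genes tested. It was the highest library for 27 genes and quinpirole replicate 3 for 13. Vehicle replicate 1 was the lowest for 13, vehicle replicate 5 for 12 and quinpirole replicate 2 for 10. The share of 100-base windows held in common with another histone gene had medians of 32.7%, 32.2% and 31.8% in the genes high, low or between in quinpirole replicate 4. Among the 8 high genes this share ran from 0% in Hist1h4d to 100% in Hist1h2bq, so the median hides a wide spread. The part of sequence sharing in this pattern was not tested. Muscle RNA was also highest in quinpirole replicate 4, at a summed 5176 CPM against 501 to 2808 CPM elsewhere, and its part in this pattern was not tested.

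**Figure D4:**
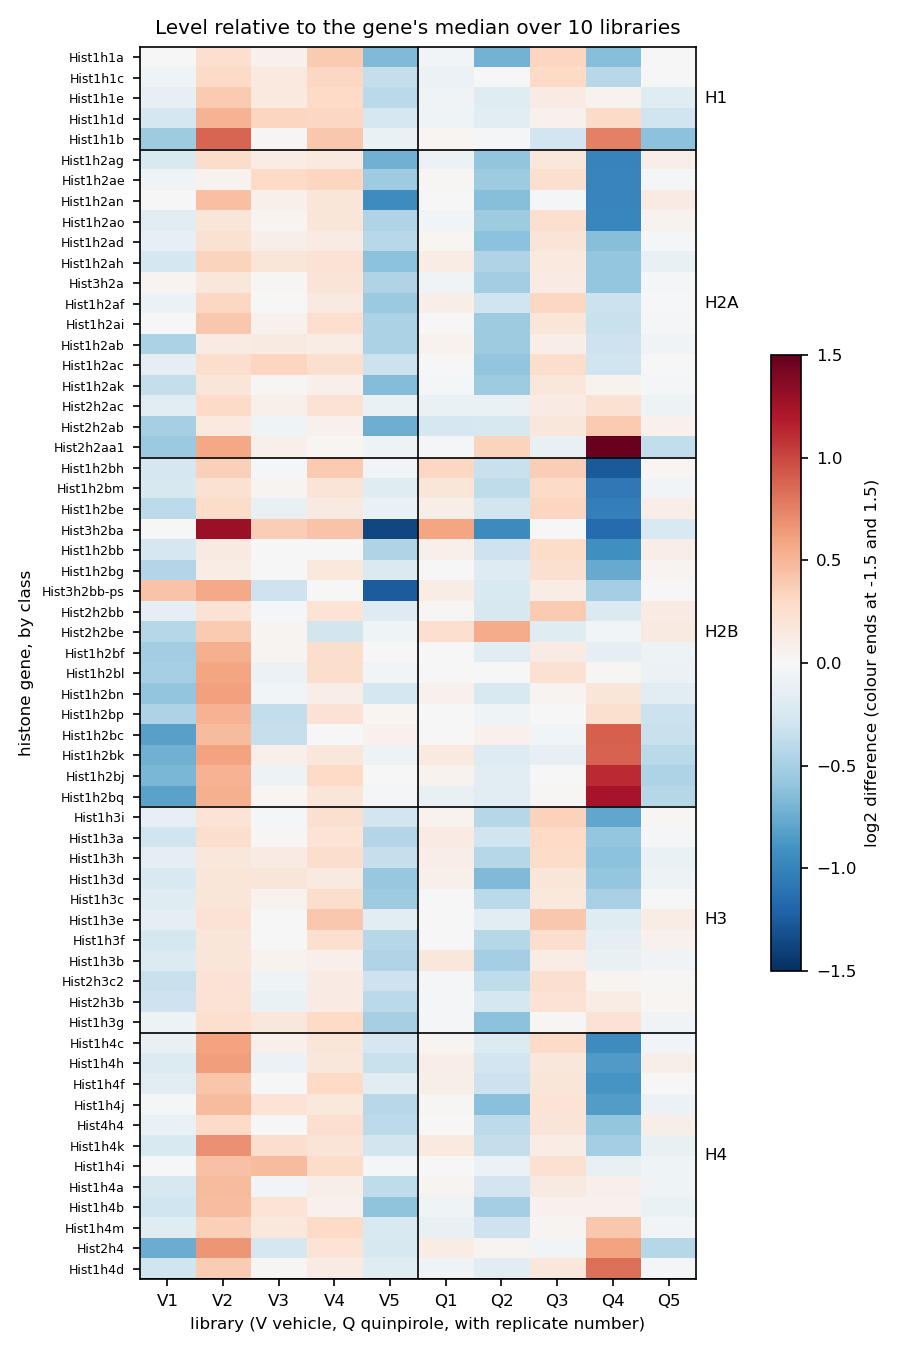
Log2 level of each tested histone gene (rows, by class) in each library (columns) relative to its median over the 10 libraries, ordered within a class by the value in quinpirole replicate 4 (Q4); red is higher and blue lower. Most genes are red in vehicle replicate 2 (V2) and blue in vehicle replicate 5 (V5) and quinpirole replicate 2 (Q2), while Q4 holds both colours within each of the classes.

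The promoters of the leading gene of each class are shown, because genes of a class that share a program of S-phase transcription are known to share promoter elements. RefSeq gave a start for 57 of the histone genes in GRCm38.p6, the assembly of mm10. The last 100 bases before the start are printed 5′ to 3′, with matches to the 4 motifs searched, on either strand, in capitals.
Hist1h1c (chr13:23738707-23738806, plus strand): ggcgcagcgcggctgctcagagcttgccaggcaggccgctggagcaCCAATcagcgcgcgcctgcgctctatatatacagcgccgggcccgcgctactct
Hist1h2ao (chr13:21810267-21810366, plus strand): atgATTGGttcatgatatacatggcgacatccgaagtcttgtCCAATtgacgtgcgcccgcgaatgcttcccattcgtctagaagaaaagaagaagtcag
Hist2h2bb (chr3:96269600-96269699, plus strand): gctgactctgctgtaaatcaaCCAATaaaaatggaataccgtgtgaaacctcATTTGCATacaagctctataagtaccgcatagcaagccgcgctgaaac
Hist2h3c2 (chr3:96239128-96239227, minus strand): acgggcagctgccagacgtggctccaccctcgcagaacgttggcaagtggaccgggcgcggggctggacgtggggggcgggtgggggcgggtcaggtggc
Hist1h4m (chr13:21811646-21811745, plus strand): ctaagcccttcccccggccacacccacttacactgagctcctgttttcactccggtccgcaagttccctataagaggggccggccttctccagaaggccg

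The window of Hist2h3c2 held none of the 4 motifs, and the TATAAA of Hist1h4m lay 128 bases before its start, outside the printed bases. Over the 250 bases before the start, the CCAAT box was found in 47 of 57 histone promoters, against 34.5% of the 27025 promoters in the table. It was present in all 6 H1, all 16 H2A and all 14 H2B promoters, in 8 of 10 H3 and in 3 of 11 H4. The TATA box, searched as TATAAA, was found in 26 of 57, against 13.0%. The search set no limit on its position within the 250 bases. The match nearest the start lay from 10 bases before it in Hist1h2bb to 250 bases in Hist1h4f. The octamer ATTTGCAT, the site known for OCT1 in H2B genes, was found in 6 of 16 H2A and 5 of 14 H2B promoters and in none of the others, against 1.61% of all. The H1 box, AAACACA, was found in 5 of 6 H1 promoters, against 6.22% of all. Many H2A and H2B genes lie in divergent pairs, so 1 stretch can serve as the promoter of 2 genes and the counts are not independent. A match is a description of the letters and not a measured site.

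Other genes of the histone supply were measured in the same fit, and none passed the test. Among 18 tested genes of histone message synthesis, 3′ processing and decay, 7 had higher and 11 lower fitted values, with a median of −0.021. Of the 18, 2 had an unadjusted p under 0.05, both lower, against 11.4% of all genes. Without quinpirole replicate 4 the count was 0. Slbp, which codes for the stem-loop binding protein, was 49.7, 43.1, 47.5, 51.3 and 48.8 CPM in vehicle replicates 1 to 5 and 45.0, 48.6, 50.4, 46.9 and 50.3 CPM in quinpirole replicates 1 to 5. It had log2 fold change 0.0056 ± 0.0764 (SE; 95% interval −0.16 to 0.17; adjusted p = 0.987) and lay between 43.1 and 51.3 CPM in libraries whose histone RNA ranged from 5709 to 9029 CPM. Npat, the coactivator of histone genes at the histone locus body, was 64.5 ± 5.27 CPM with vehicle and 70.8 ± 8.65 CPM with quinpirole, with a fitted value of 0.13. Among 19 histone chaperones and assembly factors, 12 had lower and 7 higher values, with a median of −0.065. Nap1l1, a chaperone of H2A and H2B, was 184 ± 13.8 CPM with vehicle and 169.8 ± 13.4 CPM with quinpirole. Supt16, a subunit of the FACT complex, was 159 to 173 CPM in vehicle replicates 1 to 4 and 117 CPM in vehicle replicate 5; it was 145 to 154 CPM in 4 quinpirole libraries and 102 CPM in quinpirole replicate 2.

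The genes listed as replication-independent variants also showed no call. Such messages typically carry a poly(A) tail and are made through the cell cycle, but this need not hold for every listed gene, such as H2afx and Cenpa. Of 11 tested, 9 had lower and 2 higher values, with a median of −0.13. Unadjusted p-values fell under 0.05 for 3 of the 11, 1 higher and 2 lower, against 11.4% of all genes, and 1 of the 11 had groups that did not overlap, against 2.2%. H3f3a was 836 ± 80.4 CPM with vehicle and 919.9 ± 112 CPM with quinpirole, H3f3b 527 ± 61.6 CPM with vehicle and 482 ± 41.5 CPM with quinpirole and H2afz 318 ± 40.4 CPM with vehicle and 289 ± 44.0 CPM with quinpirole. H3f3a and H3f3b both code for H3.3, and their fitted values had opposite signs, 0.13 and −0.12.

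S-phase and mitosis genes were compared library by library with histone RNA. Of 46 replication and S-phase genes, 27 had lower and 19 higher fitted values, with a median of −0.015 and no call. Their summed level was 2031, 2149, 2159, 2156 and 1661 CPM in vehicle replicates 1 to 5 and 2219, 1623, 2092, 1871 and 2049 CPM in quinpirole replicates 1 to 5. The lowest S-phase sums were those of quinpirole replicate 2 and vehicle replicate 5, the 2 libraries with the lowest histone sums. Pcna, the sliding clamp of DNA polymerase, was 146 ± 13.2 CPM with vehicle and 155 ± 20.4 CPM with quinpirole. All 31 mitosis genes had lower fitted values with quinpirole, with a median of −0.31, but none was called; 7 of 31 had an unadjusted p under 0.05, against 11.4% of all genes, 2 had groups that did not overlap, against 2.2%, and the smallest adjusted p was 0.0721. Without quinpirole replicate 4, 30 of 31 were lower, with a median of −0.28.

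Mki67, the proliferation marker, was 506, 577, 552, 490.0 and 317 CPM in vehicle replicates 1 to 5 and 483, 228, 530.0, 494 and 451 CPM in quinpirole replicates 1 to 5. Quinpirole replicate 2 and vehicle replicate 5 were again the lowest, and the fit gave log2 fold change −0.19 ± 0.233 (SE; 95% interval −0.70 to 0.32; adjusted p = 0.806). Vehicle replicate 1 had the third-lowest histone sum, 6150 CPM. Its S-phase sum of 2031 CPM lay below the 2149 to 2159 CPM of vehicle replicates 2 to 4. Its mitosis sum of 2129 CPM, however, lay above the quinpirole median of 1882 CPM. Low histone RNA thus did not go with low mitosis RNA in every library.

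Hair shaft RNA varied along with part of this spread. The mean log2 level of the hair genes was 0.41 in vehicle replicate 5, 0.59 in quinpirole replicate 4 and 0.69 in quinpirole replicate 2, and 3.06 to 6.67 in the other 7 libraries. The 3 low libraries had histone sums of 5709, 6782 and 5814 CPM, against 6150 to 9029 CPM in the others. All 28 hair genes had lower fitted values with quinpirole, with a median of −1.60, or −0.91 without quinpirole replicate 4. None was called and none had an unadjusted p under 0.05. With the hair mean as a covariate, the median histone log2 fold change was 0.00037, with 30 genes higher and 30 lower. The 12 muscle genes all had higher fitted values, with a median of 1.24, and none was called. Of these 12, 9 had an unadjusted p under 0.05, against 11.4% of all genes, and 2 had groups that did not overlap, against 2.2%. Without quinpirole replicate 4, 11 of the 12 muscle genes were higher, with a median of 0.93. Then 7 of them had an unadjusted p under 0.05, against 1705 of all 14475 genes. With the muscle mean as a covariate, the histone median was 0.12, with 48 genes higher and 12 lower, and again no histone gene was called. The part of hair or muscle content in the histone values was not tested further.

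**Figure D5:**
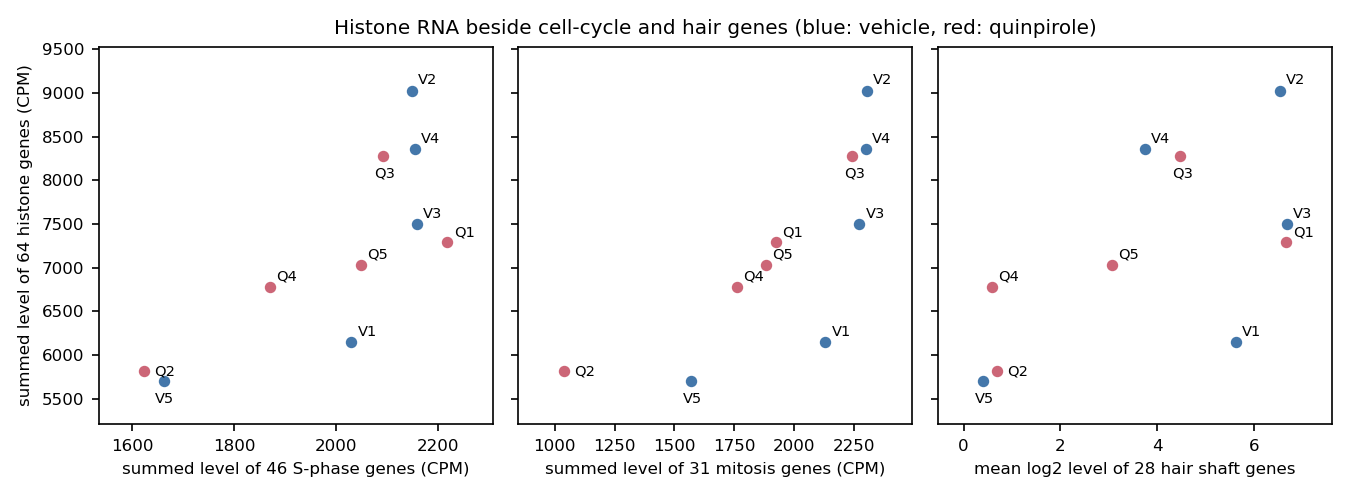
Summed level of the 64 histone genes in CPM (vertical axis) against the summed level of 46 S-phase genes, the summed level of 31 mitosis genes and the mean log2 level of 28 hair shaft genes (horizontal axes); each point is a library, V for vehicle and Q for quinpirole with its number. V5 and Q2 lie lowest in histone RNA in each panel and at the low end of all 3 horizontal axes.

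Short RNAs made without a poly(A) tail were present in part. Of 12 listed, 4 were tested and none was called. Rmrp, the RNA of RNase MRP, was 788, 1155, 694, 919.8 and 1008 CPM in vehicle replicates 1 to 5 and 876, 1083, 997, 274 and 939 CPM in quinpirole replicates 1 to 5. Quinpirole replicate 4 was again apart, below the 694 to 1155 CPM of the other 9 libraries, while its summed histone RNA of 6782 CPM was not. Rpph1, the RNA of RNase P, was 147 CPM in it, inside the 104 to 209 CPM of the others. Terc, the RNA of telomerase, was 10.3, 8.25, 8.77, 10.8 and 8.24 CPM in vehicle replicates 1 to 5 and 7.84, 7.71, 6.40, 4.07 and 6.58 CPM in quinpirole replicates 1 to 5. All 5 quinpirole libraries lay below all 5 vehicle libraries, with log2 fold change −0.47 ± 0.165 (SE; 95% interval −0.83 to −0.11; adjusted p = 0.302) and a log2 fold change of −0.33 without quinpirole replicate 4. It was the only one of the 4 with an unadjusted p under 0.05, against 11.4% of all genes tested. It was also the only one whose groups did not overlap, against 2.2% of all genes. Terc was a low gene, at 4.07 to 10.8 CPM.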

How the data were processed

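Ribosomal RNA-depleted, directional RNA-seq libraries of whole skin from 5 vehicle and 5 quinpirole samples were compared. The table holds values of signal type, which the authors deposited as normalised counts. Trimmomatic 0.38, Bowtie2, RSEM 1.3.0, edgeR and build mm10 appear in the submitters' processing notes, without role or order. All values (100% in each library, tolerance 1e-06) were whole multiples of 1 read, and the scaling matched TMM effective library sizes, so CPM and reads were recovered; this scaling moves every gene of a library alike. The members and gene lists were chosen with earlier results of these data known.

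Genes entered the test when 5 or more libraries held at least 1 CPM of them. The test was limma 3.58.1 with a trend on log2(CPM + 1), two-sided, with Benjamini-Hochberg adjustment over 14548 genes and a threshold of 0.05; fold changes are on that scale and understate changes of low genes. Tested on simulated data made from the gene means and depths of these libraries (14548 genes, 3 sets), it recovered 75% of 2-fold and 98.7% of 4-fold changes, with 4.02% false calls. Every simulated gene had the same dispersion, 0.05, and genes were drawn independently. The spread that genes share in the real libraries, as in hair and muscle RNA, was left out, so these rates need not hold for them. Class sums and medians are descriptions without a test. Below-filter genes with at least 20 reads had an exact permutation test. Named genes were the 3 highest by mean in each class and list, the 5 histone genes with the smallest p in each direction, any called gene of a list, and Mki67, Slbp, Npat, Pcna, Krt5, Krt14 and Col1a1. Hist1h2bj, Hist1h2bk, Hist1h2bq, Hist1h2ap, Hist1h1b, Hist3h2ba, Hist3h2bb-ps, Ass1, Rsc1a1, Rpl39 and Tnnt3 were named after their values were seen. Alternatives covered the pseudocount, the filter, the trend, scaling, count tests on the recovered reads (DESeq2 1.42.0 and edgeR 4.0.16), a replicate block, hair and muscle covariates, and each library left out. Sequences came from the GENCODE annotation of mm10 and RefSeq promoters of GRCm38.p6.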

Additional observations from a re-analysis of the deposited data

Results flagged for a closer look

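In each named gene and group of 5 libraries, a library was picked out where its gap to the nearest of the others, over the whole range of the group, passed the 95% limit of Dixon's test. In all, 106 groups of 5 libraries were looked at, more than the 24 named histone genes and 23 other named genes supply. Of the 106, 9 passed, all of them values of named genes, and chance alone picks about 1 in 20. Of the 9, 4 were values of quinpirole replicate 4. Hist2h2aa1 was 327.8 CPM there, with the other quinpirole libraries at 81.4 to 132.7 CPM. Hist1h4d was 323.2 CPM, with the others at 163 to 204 CPM, and Hist1h2bc was 128.3 CPM, with the others at 53.8 to 71.4 CPM. Rmrp was 273.7 CPM, far under the 876 CPM of the next quinpirole library. Quinpirole replicate 2 was low in 3 genes of dividing cells: Mki67 was 227.7 CPM where the next library was at 451 CPM, Rrm1 was 77.8 CPM where the next was at 124 CPM, and Supt16 was 101.6 CPM where the next was at 145 CPM. Supt16 was also low in vehicle replicate 5, at 116.6 CPM, with the next vehicle library at 159 CPM. Hist1h4i was 60.5 CPM in quinpirole replicate 3, above the 47.6 to 51.1 CPM of the other quinpirole libraries.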

How the results depend on the processing

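No histone gene was called under any of the 22 alternatives run. The median histone log2 fold change stayed negative under other pseudocounts, filters, scalings and tools and with the replicate block, and ranged from −0.21 to −0.015 with 1 library left out; it was 0.00037 with the hair covariate and 0.12 with the muscle covariate. The log2 ratio of the summed level ranged from −0.14 to 0.023 with 1 library left out, highest without vehicle replicate 2.

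The count of genes called over the whole table, 3 in the limma fit, was 5 at a pseudocount of 0.1, 6 without a filter, 9 without a trend, 5 with DESeq2 size factors, 5 with edgeR, 219 with DESeq2 (150 higher, 69 lower), 14 with the hair covariate and 0 with the muscle covariate. With 1 library left out it ranged from 0 to 10: it was 10 without vehicle replicate 5, 1 without vehicle replicate 3 and 0 otherwise. With replicate number as a block it was 0. The labels do not say whether equal numbers pair the samples. Same-numbered libraries had correlations of 0.22, −0.24, 0.19, 0.13 and 0.095 in their deviations from the group means, and 1 of 5 vehicle libraries correlated best with its own number. These values do not settle whether the samples were paired. The cause of the changes in the count of genes called was not tested.

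Named histone genes turned sign in 45 of 528 refits and other named genes in 31 of 506, none of them called. Log2 fold changes of turned genes were as follows. DESeq2 gave Hist1h3f −0.0036 and Hist1h4a −0.026. edgeR gave Hist1h3f −0.0076, Hist1h4a −0.030 and Slbp −0.0025. Quantile normalization gave Hist2h2bb −0.0014, Hist1h3f −0.0037, Hist1h4a −0.018 and Krt5 0.10, and DESeq2 size factors gave Hist1h4a −0.00030. The hair covariate gave Hist1h2bg 0.031, Hist1h2bb 0.11, Zcchc6 −0.0019, Cstf2 0.0069, Slbp −0.012 and Col1a1 0.016. The muscle covariate gave Hist1h1c 0.16, Hist1h1e 0.036, Hist1h2ao 0.11, Hist1h2ad 0.024, Hist1h2bg 0.22, Hist1h2bb 0.30, Hist1h3i 0.12, Hist1h4d −0.0057, Hist1h4k 0.029, Hist1h4f 0.093, Hist1h4c 0.14, H2afz 0.022, Zcchc6 −0.029, Ncbp1 −0.094, Rmrp 0.33, Slbp −0.017 and Col1a1 0.55. With 1 library left out, the ranges were Hist2h2bb −0.092 to 0.066, Hist2h3c2 −0.010 to 0.14, Hist1h3f −0.090 to 0.099, Hist1h4a −0.088 to 0.13, Tyms −0.030 to 0.12, Krt5 −0.11 to 0.039, Hist1h2bb −0.15 to 0.15, Cstf2 −0.12 to 0.045, Slbp −0.032 to 0.030, Rpph1 −0.034 to 0.22, Ncbp1 −0.049 to 0.057, Rrm1 −0.24 to 0.0059, Mki67 −0.34 to 0.030, Hist2h2aa1 −0.061 to 0.44, Hist1h2bg −0.15 to 0.098, Hist1h4d −0.023 to 0.24, Rmrp −0.38 to 0.11 and Col1a1 −0.52 to 0.055.

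The leading gene of each class had 16835 to 30005 reads over the 10 libraries, whereas Hist3h2bb-ps had 124, Hist2h2be 283, Hist2h2ab 297 and Hist3h2ba 427, so counting error weighs more in those 4.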
